A study of Mus musculus with 9 samples.

Results

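Connexins are the subunits of gap junctions, the channels that join the cytoplasm of neighbouring cells. Here 5 mouse connexin genes, Gja1, Gjb2, Gjb6, Gjb5 and Gjb1, were followed through the epidermis of embryos that lack the epithelial splicing regulators Esrp1 and Esrp2. The 5 genes were taken by symbol from a table of 38203 genes that holds 20 connexin genes in all. The only measured value a row could be selected on was the mean over the 9 libraries, for a symbol present more than once, and no member symbol was repeated. The list of members was drawn up with earlier results of these data known, so counts over them are given as descriptions and nothing is read from their share of calls. All 5 averaged above 0.1 FPKM, the filter on low values, in every genotype.

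RNA was purified from total epidermis, from the basal to the cornified layer, of separate E18.5 embryos on a mixed C57BL6/129Sv background back-crossed to C57BL6, and 9 libraries were sequenced. The labels give 2 wild-type libraries (WT), 3 libraries with Esrp1 knocked out (KO), 2 with Esrp1 knocked out and a single Esrp2 allele (KH), and 2 with both genes knocked out (DKO). The alleles were carried in every tissue of the embryo: Esrp1 lost internal exons through germline Zp3-Cre recombination, and the Esrp2 allele came from a knockout embryonic stem cell line. KO, KH and DKO embryos thus share the Esrp1 deletion, which the WT embryos do not carry, and they came from several crosses. The extraction text describes the controls as Esrp1+/+, Esrp2-/-, against the WT sample labels, and Esrp2 in the WT libraries stood at 118.1 and 135.8 FPKM. FPKM count fragments per length of exon and per sequenced fragment. They are scaled by length, so levels of different genes can be set side by side, but the number of reads behind a value was not worked out.

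Esrp1, and Esrp2 in DKO, followed the labels, whereas Esrp2 in KH overlapped KO. Esrp1 stood at 119.0 and 141.9 FPKM in WT and between 18.2 and 55.1 FPKM in the 7 other libraries, where a deletion of internal exons leaves part of the transcript to be counted. Esrp2 was 0.0843 and 0.0463 FPKM in the DKO libraries. It was 38.6 and 89.5 FPKM in KH, with a single allele, and 88.1, 88.4 and 131.1 FPKM in KO. Keratinocyte markers were high in all libraries (Krt14 from 1722 to 3692 FPKM, Krt10 from 10815 to 35425 FPKM), while the 4 endothelial markers summed to at most 0.355 FPKM. The 5 dermal fibroblast markers summed to 44.1 to 149 FPKM, most of it from Dcn, with 42.3 to 136.2 FPKM, and Col3a1 and Col1a2 reached 5.39 and 4.69 FPKM.

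Gap junctions let ions, second messengers and small metabolites pass between keratinocytes, and different layers of the epidermis use different sets of connexins. Gja1 encodes the most widely expressed connexin of mammals and is found in the basal and spinous layers. Gjb2 and Gjb6 are close relatives whose human counterparts are mutated in deafness and in inherited disorders of skin, hair and nails. Gjb5 is expressed in stratified epithelia. Gjb1 is the main connexin of hepatocytes and of myelinating Schwann cells and is not regarded as a connexin of the epidermis.

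In mm10, Gjb2 occupies chr14:57098600-57104702 and Gjb6 chr14:57123303-57133611, both on the minus strand. Gjb5 lies at chr4:127354809-127358181, also on the minus strand. Gja1 (chr10:56377300-56390419, plus strand) and Gjb1 (chrX:101376378-101385629, plus strand) stand apart from the others. No other gene of the table overlapped a member.

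Because Gjb2 and Gjb6 are neighbours whose levels were lower in DKO, while Gjb1 was higher, the sequence around their annotated starts is shown together with that of Gjb5 and Gja1. Each window runs from 250 bases before to 50 bases after a RefSeq transcription start in GRCm38.p6, is written on the strand of the gene, and was found for all 5 members. Capitals mark letters matching a TATA box (TATAAA), a GC box (GGGCGG), an AP-1 site (TGANTCA) or a grainyhead site (AACNNGTT), each searched on both strands, and none of the marked sites overlapped another. RefSeq gives Gjb1 4 starts, of which the one nearest the gene start in the expression table and the most downstream one are printed.
Gja1, chr10:56377050-56377349, plus strand: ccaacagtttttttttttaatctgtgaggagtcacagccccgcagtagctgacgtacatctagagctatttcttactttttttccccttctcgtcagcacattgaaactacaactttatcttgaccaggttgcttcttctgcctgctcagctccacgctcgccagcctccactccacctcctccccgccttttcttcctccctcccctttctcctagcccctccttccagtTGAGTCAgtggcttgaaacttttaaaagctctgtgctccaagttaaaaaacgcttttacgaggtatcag
Gjb2, chr14:57104653-57104952, minus strand: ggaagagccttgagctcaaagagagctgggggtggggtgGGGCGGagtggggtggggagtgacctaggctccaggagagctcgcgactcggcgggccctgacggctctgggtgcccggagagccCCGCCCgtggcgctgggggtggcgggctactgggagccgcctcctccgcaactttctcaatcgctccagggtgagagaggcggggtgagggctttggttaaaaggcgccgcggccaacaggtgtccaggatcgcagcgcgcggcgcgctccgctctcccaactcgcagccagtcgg
Gjb6, chr14:57133562-57133861, minus strand: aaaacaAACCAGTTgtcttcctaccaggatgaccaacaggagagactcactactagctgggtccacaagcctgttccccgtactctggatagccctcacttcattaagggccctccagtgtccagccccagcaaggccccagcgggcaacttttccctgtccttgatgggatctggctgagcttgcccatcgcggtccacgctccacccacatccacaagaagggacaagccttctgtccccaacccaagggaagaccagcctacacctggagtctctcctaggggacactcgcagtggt
Gjb5, chr4:127358115-127358414, minus strand: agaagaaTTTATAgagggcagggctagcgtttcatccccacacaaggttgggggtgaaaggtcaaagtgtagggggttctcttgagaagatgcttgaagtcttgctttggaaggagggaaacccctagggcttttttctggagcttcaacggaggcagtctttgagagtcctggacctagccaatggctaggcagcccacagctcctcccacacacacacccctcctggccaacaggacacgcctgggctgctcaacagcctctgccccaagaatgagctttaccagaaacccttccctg
Gjb1, first start, chrX:101376126-101376425, plus strand: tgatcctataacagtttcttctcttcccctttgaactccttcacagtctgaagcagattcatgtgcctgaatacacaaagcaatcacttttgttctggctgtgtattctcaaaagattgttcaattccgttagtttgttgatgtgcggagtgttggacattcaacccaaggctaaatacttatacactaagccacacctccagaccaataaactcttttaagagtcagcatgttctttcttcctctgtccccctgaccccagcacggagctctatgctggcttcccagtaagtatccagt
Gjb1, downstream start, chrX:101383482-101383781, plus strand: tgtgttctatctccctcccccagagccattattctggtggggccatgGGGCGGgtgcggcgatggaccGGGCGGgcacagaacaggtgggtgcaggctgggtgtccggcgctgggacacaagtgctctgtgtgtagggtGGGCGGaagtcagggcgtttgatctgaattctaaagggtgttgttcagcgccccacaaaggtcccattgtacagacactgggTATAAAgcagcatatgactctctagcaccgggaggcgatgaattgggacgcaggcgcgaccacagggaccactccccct

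The windows shared no motif across the 4 members that were lower in DKO. Counted in bases from the start, Gjb2 held 2 GC boxes, at -211 and -126, and its window was 70% G and C. Gjb6 held the only grainyhead letters, at -244. Gja1 held the only AP-1 letters, at -19. The TATAAA letters of Gjb5 lay on the opposite strand at -243. The downstream Gjb1 start had TATAAA at -29 and 3 GC boxes at -203, -182 and -111, whereas the first start had none of the 4 motifs. Among all 32851 promoter windows of the same length, 13.6% held TATAAA, 35.7% a GC box, 7.81% the AP-1 letters and 4.2% the grainyhead letters on either strand. These matches describe letters only, and no binding was measured.

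Gja1 was the most abundant connexin in every library. In WT its 2 libraries held 391.6 and 488.7 FPKM. Among the members, Gjb5 came next with 119.6 and 129.2 FPKM, then Gjb2 with 79.7 and 87.0 FPKM and Gjb6 with 44.0 and 48.1 FPKM. The 2 WT libraries of each of these genes lay apart from those of its neighbours in that order. Gjc1, a connexin best known from the cardiovascular system, had 1.98 and 2.72 FPKM, and Gjb1 only 0.596 and 0.611 FPKM. In all, 8 of the 20 connexin genes averaged at least 1 FPKM in a genotype.

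**Figure D1:**
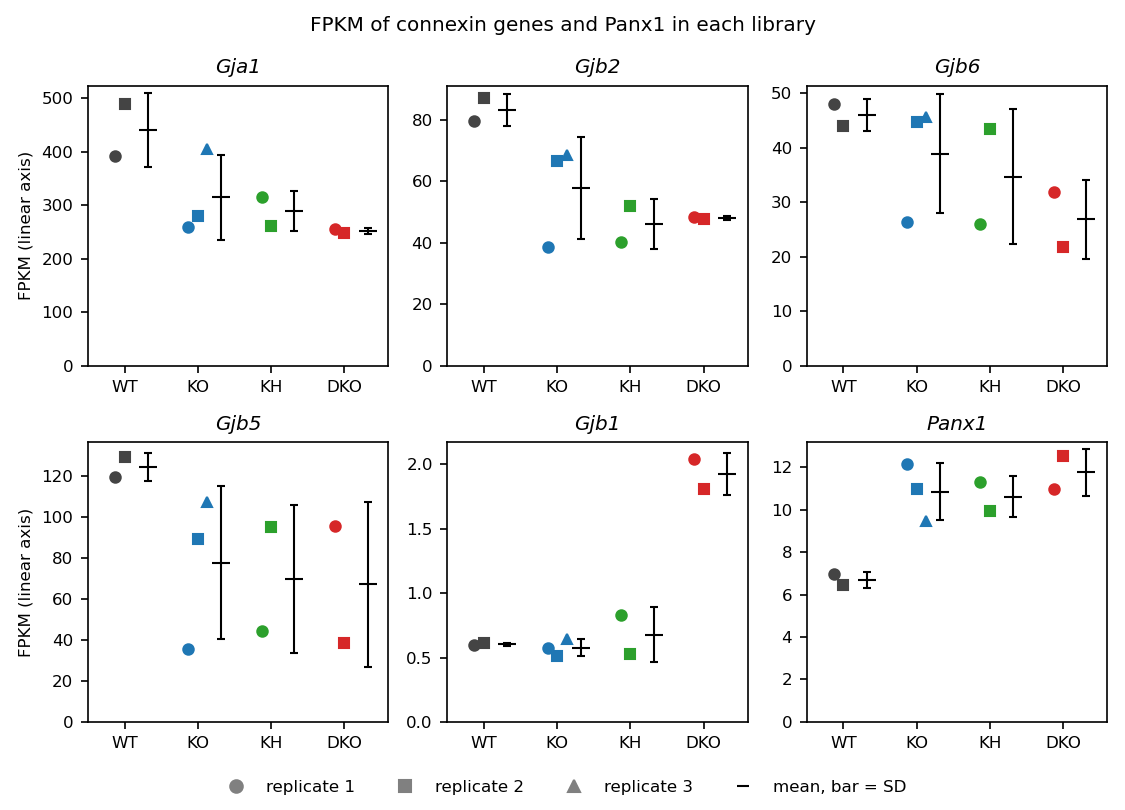
FPKM on linear axes in each library for Gja1, Gjb2, Gjb6, Gjb5, Gjb1 and the pannexin gene Panx1. Symbols are single libraries, with the genotype mean and SD beside them. In Gja1, Gjb2, Gjb6 and Gjb5 both DKO libraries lie below both WT libraries, and in Gjb1 both DKO libraries (1.81 and 2.04 FPKM) lie above every other library.

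To ask how loss of both Esrps bears on these genes, DKO was compared with WT. The 4 members that are abundant in epidermis lay below WT in each DKO library, at 54% to 58% of the WT mean, and none of these differences passed the test over all genes. Gjb1, which was scarcely expressed in WT, was the only member and the only connexin that passed, and it rose. Calls required a limma adjusted p below 0.05 and average FPKM that differed over 2-fold. By that rule 123 of 16897 tested genes were called, 0.728% of them (0.479% called higher), and 1 of the 5 members.

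Gja1 had 254.7 and 247.0 FPKM in DKO, against the WT values above. The DKO mean was 250.8 ± 5.47 FPKM (SD, n = 2) and the WT mean 440.2 ± 68.7 FPKM (SD, n = 2). The groups did not overlap, and the DKO libraries lay close together while the WT libraries were spread. On the log2(FPKM + 1) scale the difference was -0.80 with a standard error of 0.28 and a 95% interval from -1.44 to -0.16, with a limma adjusted p of 0.267.

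Gjb2 had 48.5 and 47.6 FPKM in DKO, a mean of 48.0 ± 0.618 FPKM (SD, n = 2) against 83.3 ± 5.19 FPKM (SD, n = 2) in WT. Here too the groups were well apart. The log2 difference was -0.78 (standard error 0.29, 95% interval -1.44 to -0.13), with a limma adjusted p of 0.290.

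Gjb6 had 32.0 and 21.8 FPKM in DKO, a mean of 26.9 ± 7.20 FPKM (SD, n = 2) against 46.0 ± 2.91 FPKM (SD, n = 2) in WT. Its log2 difference was -0.78 (standard error 0.34, 95% interval -1.56 to 0.01), with a limma adjusted p of 0.366. DKO replicate 2 was the lowest of all 9 libraries for this gene, and without it the log2 difference was -0.51.

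Gjb5 differed most between the 2 DKO libraries, with 95.6 FPKM in replicate 1 and 38.5 FPKM in replicate 2. Both lay below WT, whose mean was 124.4 ± 6.75 FPKM (SD, n = 2). The log2 difference of -1.02 had the widest error of the members (standard error 0.60, 95% interval -2.38 to 0.34), with a limma adjusted p of 0.471. It rested largely on 1 library: without DKO replicate 2 it was -0.38, and without DKO replicate 1 it was -1.67.

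In bulk tissue, fewer cells of a layer and less RNA per cell cannot be told apart for any of these genes. Of all tested genes, 26.4% had their DKO libraries wholly below WT, and 27.8% wholly above, so separation of 2 libraries from 2 was common in this comparison. The 4 lower members and the 1 higher member are to be read against those shares. Without adjustment, limma gave p below 0.05 for Gja1 (0.0195) and Gjb2 (0.0248) among the lower members, where 7.6% of all tested genes were lower by that rule. The median log2 difference was -0.78 over the 5 members, -0.11 over the 13 connexins that passed the filter on low values, 0.01 over the 8 of these that are not members, and 0.02 over all tested genes.

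Markers of the epidermal layers and of other cells also differed between DKO and WT. The 4 spinous markers Krt1, Krt10, Dsg1a and Dsc1 summed to 36322 and 25111 FPKM in DKO against 45242 and 60336 FPKM in WT. Among them, the desmosomal cadherin genes had log2 differences of -1.49 (Dsg1a) and -2.04 (Dsc1), with limma adjusted p of 0.182 and 0.212. The 4 melanocyte markers summed to 89.8 and 196 FPKM in DKO against 44.0 and 40.0 FPKM in WT, and Mlana among them had a log2 difference of 1.93 with a limma adjusted p of 0.116. None of these 8 genes was called, although neither pair of sums overlapped. Among the 5 basal markers the keratin genes Krt14 (3032 and 3596 against 1805 and 1722 FPKM) and Krt5 (2587 and 3284 against 2309 and 2343 FPKM), which make up nearly all of the sum, were wholly higher in DKO. Trp63 was wholly lower (36.0 and 47.8 against 53.6 and 49.9 FPKM), and Itgb4 and Col17a1 overlapped WT. The hair follicle sum (559 and 645 against 471 and 396 FPKM) was mostly Krt17, which is also in the wound keratin list. Lhx2 and Sox9 were wholly higher as well, whereas Shh and Edar overlapped WT. The lipid-binding protein gene Fabp4, from the adipocyte list, had 87.0 and 30.0 FPKM in DKO against 6.66 and 17.8 FPKM in WT, but the defining adipocyte markers Adipoq and Plin1 were listed at 0 or at most 0.0598 FPKM in these 4 libraries. Sums of the granular and cornified, fibroblast and immune markers overlapped WT, but some of their genes did not. Hrnr (372 and 160 against 788 and 753 FPKM) and Tgm3 (59.3 and 62.0 against 77.5 and 98.4 FPKM) were wholly lower in DKO. Lor, Flg and Ivl overlapped WT. H2-Aa (6.22 and 1.58 against 0.634 and 0.258 FPKM) and Col1a1 (0.231 and 0.290 against 0.167 and 0.112 FPKM) were wholly higher. The remaining fibroblast and immune markers overlapped WT. The part of these markers in the connexin differences was not tested.

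Gjb1 went the other way. It had 2.04 and 1.81 FPKM in DKO, and no other library exceeded 0.828 FPKM. The DKO mean was 1.93 ± 0.163 FPKM (SD, n = 2) and the WT mean 0.604 ± 0.0103 FPKM (SD, n = 2), a ratio of 3.19. On the log2(FPKM + 1) scale, which understates changes of genes at such low levels, the difference was 0.87 (standard error 0.14, 95% interval 0.55 to 1.18) with a limma adjusted p of 0.0309. Gjb1 thus remained the least abundant of the 8 connexins in DKO, where Gjc1 had 2.19 and 4.43 FPKM.

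The call for Gjb1 was close to the threshold. It was lost in 16 of 22 alternative fits, some of which kept all libraries, such as a pseudocount of 0.1, a filter at 1 FPKM and rescaling to TPM. Leaving out WT replicate 1 or 2 gave a limma adjusted p of 0.221 or 0.249, leaving out DKO replicate 1 or 2 gave 0.154 or 0.0921, and leaving out KO replicate 1, 2 or 3 gave 0.0616, 0.0684 or 0.0518. Without KH replicate 1 or 2 it was 0.0217 or 0.0254. The difference itself stayed between 0.81 and 0.92 in these 9 fits.

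Gjb1 is X-linked, and the libraries differ in sex. The X-inactivation transcript Xist was at 110.9 FPKM in WT replicate 2 and between 76.2 and 180.4 FPKM in the KO libraries, but at most 0.178 FPKM in WT replicate 1, KH and DKO. Gjb1 was 0.596 FPKM in WT replicate 1 and 0.611 FPKM in WT replicate 2, a single library on each side of that divide. A fit without the 4 Xist-high libraries kept WT replicate 1 as the only WT library and no KO library, so KH and DKO alone gave its spread. The Gjb1 difference in that fit was 0.87. The part of sex in the Gjb1 result was not tested. The wound keratins Krt6a, Krt6b, Krt16 and Krt17 were also higher in DKO as a group, with sums of 1758 and 3517 FPKM against 398 to 687 FPKM in the other libraries. Taken singly, this held for Krt6a, Krt6b and Krt16, whereas Krt17 in DKO (538.6 and 598.8 FPKM) lay below KO replicate 1 (638.7 FPKM). The part of the wound keratins in the Gjb1 result was not tested.

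**Figure D2:**
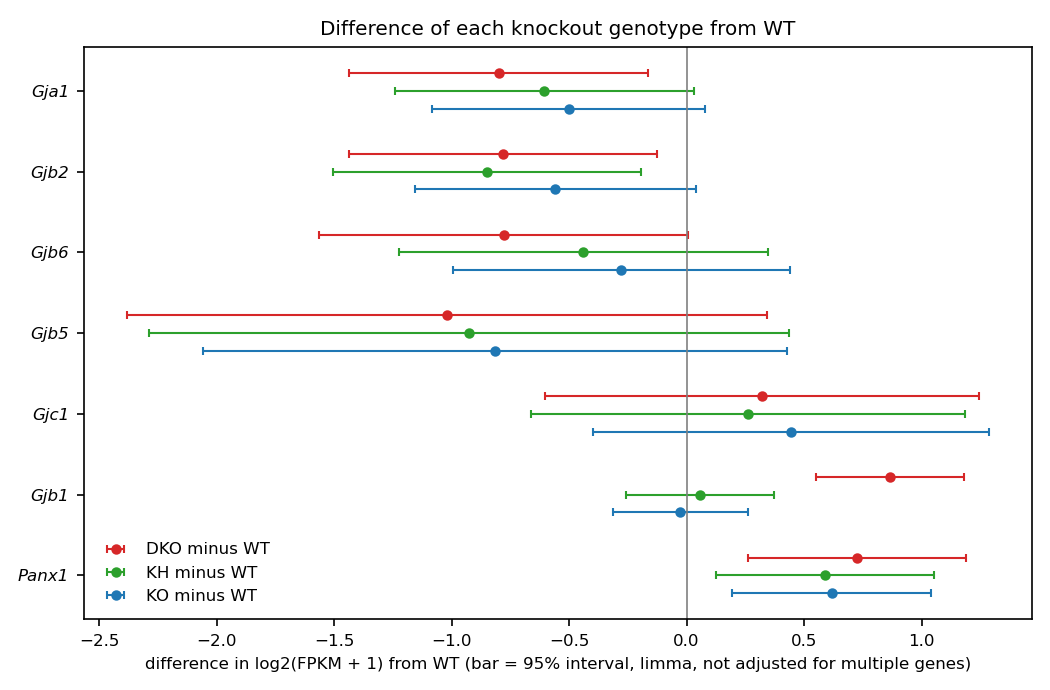
Difference of DKO, KH and KO from WT on the log2(FPKM + 1) scale for Gja1, Gjb2, Gjb6, Gjb5, Gjc1, Gjb1 and Panx1, with bars for the 95% interval of each gene taken alone (limma, 9 libraries). Only the Gjb1 difference in DKO passed the test over all genes, and the intervals of Gja1 and Gjb2 in DKO and of Gjb2 in KH lie below 0. All 3 comparisons use the same 2 WT libraries.

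With Esrp1 lost and 1 Esrp2 allele left, in KH, the same 4 members lay below both WT libraries and none was called. In this comparison 5 of 16897 genes were called (0.0296%), and 16.6% of all tested genes were lower in both KH than in both WT libraries. Gja1 had 314.9 and 261.7 FPKM in KH, a mean of 288.3 ± 37.6 FPKM (SD, n = 2), but in TPM its KH replicate 1 (441.5) overlapped WT replicate 1 (437.5). Gjb2 had 40.3 and 52.0 FPKM, a mean of 46.2 ± 8.23 FPKM (SD, n = 2). Its log2 difference from WT of -0.85 (standard error 0.29, 95% interval -1.50 to -0.19) had a limma p of 0.0171 before adjustment and 0.980 after.

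Gjb6 and Gjb5 split between the 2 KH libraries. Gjb6 had 26.0 FPKM in replicate 1 and 43.5 FPKM in replicate 2, the latter just below WT. Gjb5 had 44.2 and 95.1 FPKM. Their log2 differences were -0.44 (95% interval -1.22 to 0.34) and -0.93 (95% interval -2.29 to 0.43), and without KH replicate 1 they were -0.08 and -0.38. Gjb1 had 0.828 and 0.524 FPKM and a difference of 0.06 (95% interval -0.26 to 0.37), which changed sign to -0.07 without KH replicate 1.

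In KO, with both Esrp2 alleles present, the members came closest to WT. Both Gjb2 (38.8, 66.6 and 68.5 FPKM) and Gjb5 (35.7, 89.4 and 107.4 FPKM) stayed below WT in all 3 libraries, which 12.1% of all tested genes did. Neither was called, with limma adjusted p of 0.853 for both, and 0.0296% of all genes were called. Gja1 had 259.8, 279.1 and 405.4 FPKM, so that KO replicate 3 exceeded WT replicate 1. Gjb6 had 26.3, 44.7 and 45.7 FPKM and overlapped WT as well. The log2 differences from WT were -0.50 for Gja1 (95% interval -1.08 to 0.08), -0.56 for Gjb2 (-1.16 to 0.04), -0.28 for Gjb6 (-0.99 to 0.44) and -0.82 for Gjb5 (-2.06 to 0.43). KO replicate 1 weighed on 3 of them: without it, Gjb2 was at -0.30, Gjb6 at -0.02 and Gjb5 at -0.34. Gjb1 had 0.576, 0.510 and 0.640 FPKM, a range that holds both WT values.

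The mean FPKM of Gja1 was lower in the order WT, KO, KH, DKO, and that of Gjb6 and Gjb5 followed the same order, while Gjb2 was lowest in KH. KO, KH and DKO overlapped in Gjb2, Gjb6 and Gjb5, so their order is within the spread of the libraries. In Gja1 both DKO libraries lay below all KO and KH libraries, as 9.88% and 14.5% of all tested genes did. That separation was lost after rescaling each library to its FPKM total (TPM), where DKO replicate 2 had 320.0, above KO replicate 2 (246.8) and KH replicate 2 (282.8). The comparisons among the 3 knockout genotypes ask what the Esrp2 alleles added. All KO libraries were Xist-high and all KH and DKO libraries Xist-low, as given above. Sex and Esrp2 genotype therefore cannot be told apart in any comparison with KO. WT values do not enter these differences, but the WT libraries share in the estimate of their spread. Between DKO and KO the log2 difference was -0.30 for Gja1 (95% interval -0.88 to 0.28), -0.22 for Gjb2 (-0.82 to 0.38), -0.50 for Gjb6 (-1.22 to 0.22) and -0.20 for Gjb5 (-1.45 to 1.04). Between DKO and KH it was -0.19 for Gja1 (-0.83 to 0.44), 0.07 for Gjb2 (-0.59 to 0.72), -0.34 for Gjb6 (-1.12 to 0.45) and -0.09 for Gjb5 (-1.45 to 1.27). None of the 8 differences passed the test, which does not show that the levels were equal.

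Gjb1 was the exception in these comparisons as well. Between DKO and KO, where 0.639% of all genes were called and 0.521% called higher, Gjb1 was the 1 member called and did not overlap (11.2% of all genes were wholly higher), with a log2 difference of 0.89 (standard error 0.13, 95% interval 0.61 to 1.18), a ratio of 3.35 and a limma adjusted p of 0.0191. All KO libraries were Xist-high and both DKO libraries Xist-low, so sex and Esrp2 genotype cannot be told apart there. Leaving out a WT, KO or DKO library brought the adjusted p to between 0.0578 and 0.136, that is past the threshold: WT replicate 1 gave 0.0578 and replicate 2 0.0591, KO replicates 1 to 3 gave 0.0681, 0.0892 and 0.0716, and DKO replicates 1 and 2 gave 0.136 and 0.0620. Between DKO and KH, where 0.426% were called, the log2 difference of 0.81 (standard error 0.14) had a limma adjusted p of 0.0658 and was not called, although both DKO libraries again lay above both KH libraries, as 14.3% of all genes did. Without KH replicate 1, the higher of the KH pair, it was 0.94 with a limma adjusted p of 0.0365. Between KH and KO no member and no gene (0.0%) was called by limma, with 185 genes at an unadjusted p below 0.05.

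Gjc1 overlapped WT in all 3 knockout genotypes, with 2.19 and 4.43 FPKM in DKO and a log2 difference of 0.32 (95% interval -0.60 to 1.24), which was -0.06 without DKO replicate 2. Among the connexins below 1 FPKM, Gjd3 was lower in each DKO library (0.293 and 0.101 FPKM against 0.481 and 0.394 FPKM in WT) and was not called. No connexin outside the members was called in any of the 6 comparisons by limma. At an unadjusted p below 0.05 there was none in DKO against WT and 1 in each of KH and KO against WT, which was Gjd3 both times.

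Summed over all 20 connexin genes, WT held 863 and 953 FPKM, DKO 522 and 705 FPKM, KH 528 and 649 FPKM, and KO 453 to 831 FPKM. All DKO, KH and KO sums were thus below both WT sums. Gja1 supplied 45.4% to 51.3% of the sum in WT and 36.1% to 47.3% in DKO, and Gjb2 9.13% to 9.23% in WT and 6.88% to 9.12% in DKO. Gjb5 supplied 13.6% to 13.9% in WT and 7.37% to 13.6% in DKO. Gjb1 made up 0.0641% to 0.0691% of the sum in WT and 0.290% to 0.347% in DKO. These shares were not tested.

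**Figure D3:**
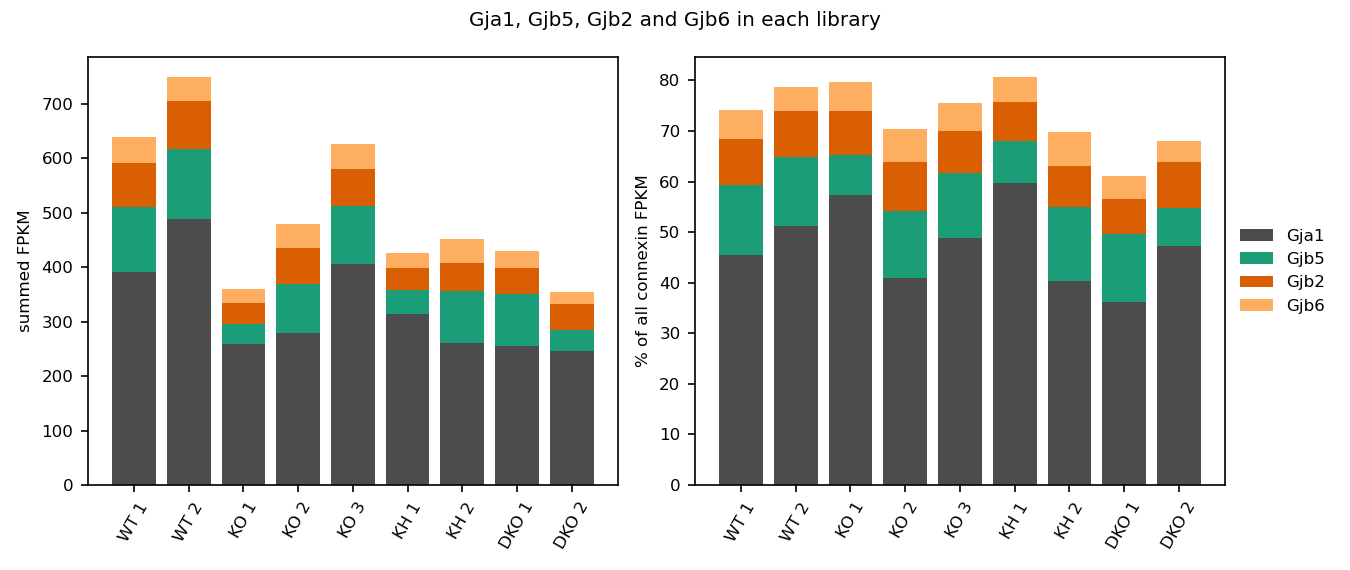
Stacked FPKM (left) and percent of the FPKM of all 20 connexin genes (right) for Gja1, Gjb5, Gjb2 and Gjb6 in each of the 9 libraries. The summed FPKM of the 4 genes is highest in both WT libraries, and lowest of their genotypes in KO replicate 1, KH replicate 1 and DKO replicate 2.

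Within each knockout genotype, 1 library was low for most connexins at once. Of the 7 connexins averaging at least 1 FPKM over the 9 libraries, KO replicate 1 was the lowest KO library for 6, KH replicate 1 the lower KH library for 5, and DKO replicate 2 the lower DKO library for 6. These libraries also had the lowest total FPKM of their genotypes (734747, 713318 and 771857, against 886703 to 1130713 in the other knockout libraries), and in TPM the counts were 5, 4 and 4. In TPM, Gja1 and Gjb2 were higher in DKO replicate 2 (320.0 and 61.7) than in replicate 1 (229.0 and 43.6). Gjb5 differed most, at 35.7 FPKM against 89.4 and 107.4 in KO, 44.2 against 95.1 in KH and 38.5 against 95.6 in DKO. Gja1 departed from this in KH, where replicate 1 was the higher. Gjc1 ran the other way and was the highest there in each genotype, with 5.22 FPKM in KO, 4.39 FPKM in KH and 4.43 FPKM in DKO against 1.96 to 3.52 FPKM in the other knockout libraries.

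Layer markers moved with these libraries. The 5 basal markers Krt5, Krt14, Trp63, Itgb4 and Col17a1 were all highest of their genotype in KO replicate 1, in KH replicate 1 and in DKO replicate 2. Summed, they stood at 7803, 6921 and 7045 FPKM there, against 4692 and 5887 FPKM in the other KO libraries, 3613 FPKM in the other KH library, 5719 FPKM in the other DKO library and 4201 and 4244 FPKM in WT. The 5 granular and cornified markers Lor, Flg, Ivl, Tgm3 and Hrnr were lowest of their genotype in those libraries for 5, 5 and 4 genes, with sums of 5055, 4033 and 5437 FPKM against 8402 to 11631 FPKM in the remaining 6 libraries. The 4 spinous markers were lowest there for 3 genes in each genotype. In TPM, the basal markers were again highest there for all 5 genes and the cornified markers lowest for 4, but the spinous markers were lowest for 2, 1 and 1. Summed markers of fibroblasts, hair follicles and melanocytes were also highest of their genotype in these libraries. The 5 fibroblast markers summed to 149 FPKM in KO replicate 1 (82.8 and 89.8 in the other KO libraries), 138 FPKM in KH replicate 1 (50.7 in replicate 2) and 75.2 FPKM in DKO replicate 2 (44.1 in replicate 1). The 5 hair follicle markers summed to 683, 627 and 645 FPKM there, against 371 and 561, 362, and 559 FPKM. The 4 melanocyte markers summed to 141 against 53.2 FPKM in KH and 196 against 89.8 FPKM in DKO, and to 76.4 against 75.6 and 63.1 FPKM in KO, all above the WT sums of 44.0 and 40.0 FPKM. The part of these markers in the connexin results was not tested.

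**Figure D4:**
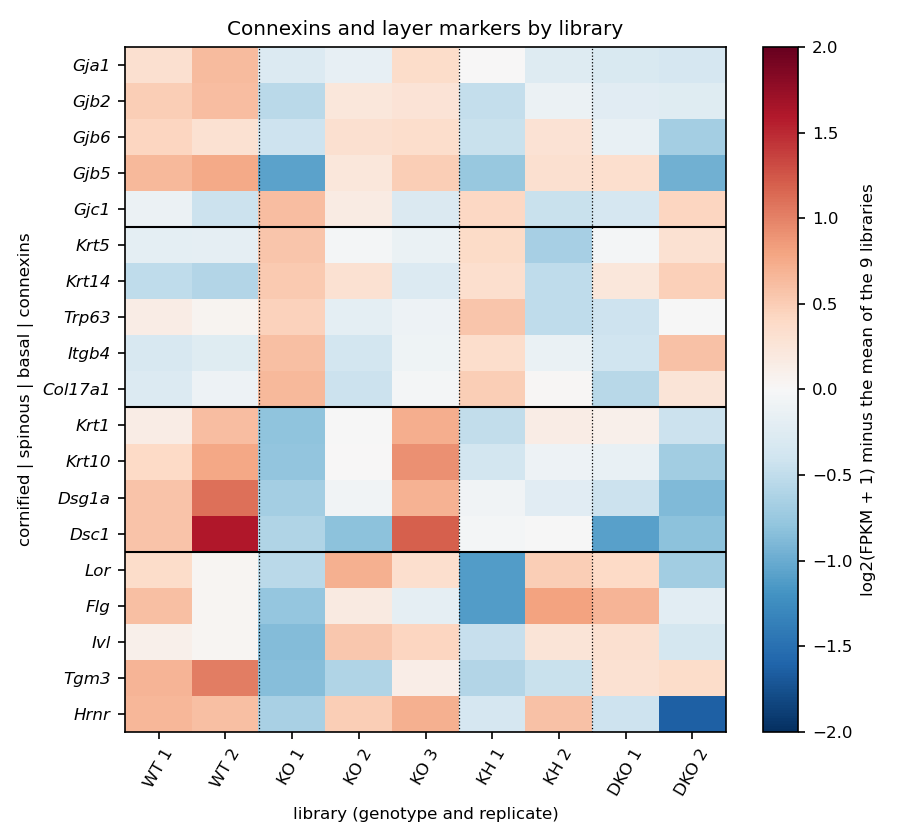
Level of 5 connexins and of basal, spinous and cornified layer markers in each library, as log2(FPKM + 1) minus the mean of the 9 libraries for that gene (blue lower, red higher). In the columns of KO replicate 1, KH replicate 1 and DKO replicate 2 the Gjb genes are blue or pale, and Gjc1 and the basal markers are mostly red.

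Across the 9 libraries, Gjb5 and Gjb6 were the most alike among the members, with a Pearson r of 0.91 for log2(FPKM + 1). Many genes outside the family were closer to each. Among 12197 genes averaging at least 1 FPKM, Gjb6 ranked 279 for likeness to Gjb5, and Gjb5 ranked 258 for Gjb6. Gjb2 followed at 0.85 with Gjb5 and 0.83 with Gjb6, and Gja1 was at 0.78 with Gjb2 and 0.62 with Gjb5. Gjc1 was at -0.90 with Gjb5. Gjb1 was negatively related to the other 4 members, from -0.28 with Gjb5 to -0.61 with Gjb6. These are descriptions over 9 libraries of 4 genotypes that share those genotypes and the layer differences above.

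Of 12197 genes averaging at least 1 FPKM, the patterns most like each member were sought by the same measure. Gjb5 was closest to Glrx, a glutaredoxin (0.99), Itm2b (0.99) and Pdzd11 (0.99), and Glrx had 788 and 801 FPKM in WT, 585 and 303 FPKM in DKO. Gjb6 was closest to the proteasome subunit gene Psmd8 (0.99), Ttc7 (0.99) and Gdpd1 (0.98). Gjb2 was closest to Strn (0.97), Pik3ca (0.96) and Chmp3 (0.96). Gja1 was closest to Tmem167b, Coa5 and Oxsm (0.99, 0.99 and 0.98), and Gjb1 to Sema3g, Txnrd3 and SNORA42 (0.99, 0.98 and 0.98). Sema3g had 5.95 and 4.10 FPKM in DKO against at most 0.815 FPKM elsewhere. SNORA42 had 11.7 and 7.25 FPKM in DKO and was listed at 0 in the other 7 libraries. Both were picked for likeness to Gjb1 over these same libraries, so a high level in DKO follows from the search. Both also averaged at least 1 FPKM only through DKO.

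Pannexins form channels in single membranes and are distant functional relatives of connexins. Panx1, which releases ATP from cells, had 6.96 and 6.43 FPKM in WT, 12.1, 11.0 and 9.44 FPKM in KO, 11.3 and 9.92 FPKM in KH, and 11.0 and 12.5 FPKM in DKO. Every knockout library was thus above both WT libraries. In DKO against WT, 27.8% of all tested genes were wholly higher, and the matching shares for KH and KO are not given here. The KO, KH and DKO comparisons share the same WT libraries, so these separations are not independent of each other. The log2 difference from WT was 0.73 in DKO (standard error 0.20, 95% interval 0.26 to 1.19), 0.59 in KH and 0.62 in KO, and the limma adjusted p values were 0.182, 0.980 and 0.853. Panx2 and Panx3 did not pass the filter on low values.

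Of 22 genes for proteins that bind, phosphorylate or remove connexins, 20 were tested and none was called in any of the 6 comparisons. In DKO against WT, 10 of the 20 were lower and 4 higher in both libraries, beside 26.4% and 27.8% of all genes. Ezr, whose product ezrin ties membrane proteins to actin, had 82.3 and 93.7 FPKM in DKO against 135.6 and 194.7 FPKM in WT (log2 difference -0.88, limma adjusted p 0.304). Tjp1, the scaffold ZO-1 that binds the tail of the Gja1 product, had 13.8 and 16.9 FPKM against 19.4 and 28.2 FPKM (log2 difference -0.58, limma adjusted p 0.471).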

How the data were processed

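RNA-seq of epidermis from 9 separate E18.5 embryos was used. The authors mapped paired 100-base reads from stranded libraries with TopHat 1.4.1 to mm10 and Ensembl release 72 and made FPKM per gene with Cuffdiff 2.2.0, and they deposited 1 FPKM column per library beside genotype means that were not used here. The deposited FPKM hold no read counts. The paper reports a minimum of mapped read pairs for each genotype, which was not used here, so the counting error of a value was not estimated. An abundant gene can lower the FPKM of others. Every library column was matched to a sample by its label, and replicate numbers are those of the titles.

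Genes with a genotype average above 0.1 FPKM (16897 of 38203) were analysed as log2(FPKM + 1). All 9 libraries were fitted together with 4 genotype means in limma 3.58.1 (R 4.3.3), which leaves 5 residual degrees of freedom, with eBayes and an intensity trend. The p-values of each of the 6 pairwise comparisons were adjusted over all tested genes by the Benjamini-Hochberg method, and calls needed an adjusted p below 0.05 and average FPKM differing over 2-fold. The fit was tested on simulated data. Tables and figures were made with Python 3.11.15, pandas 2.3.3, numpy 2.4.6 and matplotlib 3.10.9. Promoter windows came from RefSeq (GRCm38.p6).

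The members and all gene lists were chosen with earlier results of these data known. Genes were named by rule: the 5 members, other connexins averaging at least 1 FPKM in a genotype, the pannexins, called genes and defining markers of the partner and layer lists, the 3 genes most alike to each member by Pearson r, and the targeted and sex-linked genes. Some genes under this rule are not reported here. Gjd3, Ezr, Tjp1 and Krt6b were named after their values were seen. Alternatives were 20 planned settings, 9 of which left out 1 library each, and 3 added after the data were seen: a correction for transcript length (loess with a span of 0.5, GENCODE M21 lengths, known for 95.1% of genes), a fit without the 4 libraries with high Xist, and the ranking of libraries within a genotype after rescaling to TPM.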

Additional observations from a re-analysis of the deposited data

How the results depend on the processing

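For 23 gene and comparison pairs, 498 refits under the alternatives gave 462 values on the same side of zero and of the threshold, 29 past the threshold before but not after (all for Gjb1), 1 the reverse, and 6 with a changed sign. The single connexin called in DKO against WT was Gjb1. The count was 0 with a pseudocount of 0.1, with no filter, with a filter at 1 FPKM, with a fit of the 2 genotypes alone, without the intensity trend, after rescaling to TPM, after quantile normalization and without the 4 Xist-high libraries. It was 1 with median ratio scaling, array weights, no fold threshold and length correction, and 0 to 1 when single libraries were left out. Over the settings that kept all libraries its adjusted p ran from 0.00514 to 0.177 and its log2 difference from 0.83 to 1.52. In DKO against KO the count of 1 became 0 with the lower pseudocount, without the filter, with that at 1 FPKM, with 2 genotypes alone and with TPM, and was 0 to 1 with single libraries left out. In DKO against KH the count of 0 became 1 without KH replicate 1, a range of 0 to 1. The causes were not tested.

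Signs changed when single libraries were left out for Gjc1 (from -0.063 without DKO replicate 2 to 0.70) in DKO against WT, for Gjb1 (from -0.073 without KH replicate 1 to 0.19) and Gjc1 (from -0.17 without KH replicate 1 to 0.69) in KH against WT, and for Gjb1 in KO against WT (from -0.056 to 0.0038 without KO replicate 2). Gjb1 also changed sign in KH with quantile normalization (-0.022) and in KO with length correction (0.0072). The member differences in Gja1, Gjb2, Gjb5 and Gjb6 from WT were negative and uncalled in every refit. Over all genes, the 123 calls of DKO against WT became 11 without the 4 Xist-high libraries, 41 with no filter, 53 with the fit of 2 genotypes, 67 with the replicate block and 556 with array weights. With single libraries left out they ran from 54 to 152, with 65 and 54 without WT replicate 1 and 2 and 75 without DKO replicate 1.

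Replicate numbers name separate embryos, and the correlation of same-numbered libraries ran from -0.587 to 0.483, so the numbers do not pair them. With the replicate number as a block, 0 connexins were called in DKO against WT and 0 in DKO against KO, and the Gjb1 differences of 0.87 and 0.92 had adjusted p of 0.107 and 0.146. Gjb1 was near 1 FPKM, and the number of reads behind its values was not worked out, which limits what they can carry.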
